A study of Mus musculus with 18 samples.

Results

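Sdc4-/- satellite cells were compared with wild type (WT) satellite cells 48 h after muscle injury, across all 45101 probe sets of the array. Members were chosen by their sample titles alone, which gave 3 Sdc4-/- and 3 WT arrays at 48 h, 6 of the 18 arrays of the series. The series followed satellite cells of both genotypes from uninjured muscle to 12 h and 48 h after injury, with 3 arrays in each of 6 groups. The question addressed by this pair of groups is which transcripts differ, at the latest time sampled, between cells that can and cells that cannot make syndecan-4. WT mice were of the B6D2F1/J type, a cross of C57Bl/6 with DBA2, whereas the Sdc4-/- mice carried a homozygous deletion of Sdc4 on C57Bl/6. Genotype and strain therefore differed together and cannot be told apart in any value below. All mice of both groups were female, with an age of 3 to 6 months in the labels and of 3 months in the methods for the injury, and in both the tibialis anterior had been injected with 1.2% barium chloride, a salt that kills muscle fibres, 48 h before it was taken. Cells were sorted on syndecan-3, and RNA of 5000 cell equivalents went through 2 rounds of T7 linear amplification before hybridization. Whether an array holds 1 animal or a pool is not said in the sources used here, so that p-values measure only the spread between these samples.

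Satellite cells are the resident stem cells of skeletal muscle, marked at rest by the transcription factor Pax7. After injury they activate, switch on the myogenic factors Myf5 and Myod1, divide and fuse into new fibres. Syndecan-4 is a membrane proteoglycan that carries heparan sulfate chains. It is known as a co-receptor for fibroblast growth factors and hepatocyte growth factor, whose signals run through ERK, and as a partner of integrins and protein kinase C alpha in focal adhesions. In injured muscle, macrophages and neutrophils enter the tissue in large numbers and respond to interferons and other cytokines.

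Values are log2 values, on which a difference of 1 is a 2-fold difference, and values under about 3 lie near the background of the arrays. A probe set is said to have risen or fallen in Sdc4-/- cells, or to be called, where its limma adjusted p was under 0.05. Both words compare the genotypes at the same time and do not describe a change over time. Several technical measures separated the 2 groups without overlap. The mean of 18 hybridization-control probe sets, for RNAs added at hybridization, was 12.1 ± 0.41 (SD, n = 3) in WT and 9.70 ± 0.87 (SD, n = 3) in Sdc4-/- arrays. The number of bright probe sets, those over 5, was 5354 ± 221 (SD, n = 3) in WT and 7571 ± 240 (SD, n = 3) in Sdc4-/- arrays. The excess of the 3' over the 5' probe set of Actb was 3.95 to 4.65 in WT and 6.14 to 6.66 in Sdc4-/- arrays. That of Gapdh overlapped, at 1.57 to 2.58 in WT and 2.28 to 3.00 in Sdc4-/- arrays. Arrays correlated at 0.883 to 0.923 within WT, at 0.963 to 0.968 within Sdc4-/- and at 0.853 to 0.918 between the groups, with WT replicate 2 the least like the others. With the level of the hybridization controls as a covariate (below, the covariate) 204 of the 2286 called probe sets were still called (8.92%), and 2281 kept their sign. The part of these measures in the results was not tested.

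**Figure D1:**
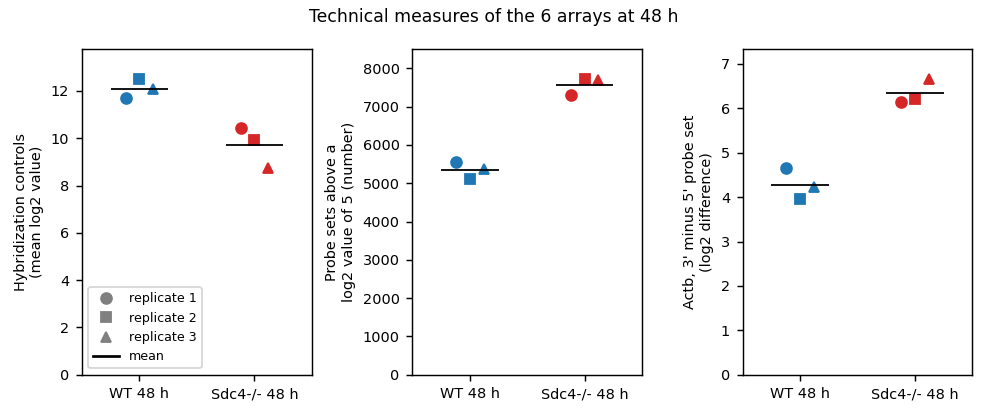
Mean log2 value of the hybridization controls, number of probe sets brighter than 5, and log2 difference between the 3' and 5' probe sets of Actb, for each of the 3 WT and 3 Sdc4-/- arrays at 48 h (points, shaped by replicate) with the group mean (line). In each panel the groups do not overlap, with hybridization controls higher in WT and the other measures higher in Sdc4-/- arrays.

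The label of the cells was checked against marker genes. Pax7 was at background on all 6 arrays, at 2.45 to 2.46 in WT and 2.39 to 2.42 in Sdc4-/- cells. Myod1 was at 2.33 to 2.35 in WT and 2.31 to 2.34 in Sdc4-/- cells, and Myog, the factor of differentiating myoblasts, was under 3 on every array. Of 24 satellite cell and quiescence genes 5 had a mean of at least 5 in each group. By contrast, 21 of 24 monocyte and macrophage markers had such a mean in WT and 22 in Sdc4-/- cells. Csf1r, the receptor that macrophages need, was at 12.4 to 12.9 in WT and 12.6 to 13.1 in Sdc4-/- cells, and the lysozyme gene Lyz2 at 12.1 to 12.7 and 12.6 to 13.2. The data thus go against the label as a pure population, since Pax7 and Myod1 were at background and those of macrophages were among the brightest. In such bulk samples fewer cells of a type and less RNA per cell cannot be told apart.

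Sdc4 itself was measured first. Its dimmer probe set was at 5.59, 7.62 and 6.48 in WT and at 2.54, 2.60 and 2.52 in Sdc4-/- cells, a difference of -4.01 (SE 0.44, adjusted p = 0.000545), and it stayed called with the covariate (adjusted p = 0.0435). The brighter was at 6.88, 8.0 and 8.11 in WT and at 4.15, 4.09 and 6.53 in Sdc4-/- cells, a difference of -2.74 (SE 0.68, adjusted p = 0.04), and its call ended with the covariate (adjusted p = 0.395), with only the groups compared (0.121) and with the replicate block (0.056). Both probe sets were lower on each Sdc4-/- array than on each WT array, although Sdc4-/- replicate 3 kept a value of 6.53 on the brighter. It ended also without WT replicate 2 (adjusted p = 0.122), WT replicate 3 (0.112), Sdc4-/- replicate 1 (0.124) or Sdc4-/- replicate 2 (0.14). Whether either probe set lies in the deleted part of the gene was not checked, so that the check of the genotype labels holds only for the transcript that each probe set reads. In uninjured cells the dimmer probe set differed by -0.46 (adjusted p = 0.895), and the change between the times was -3.55 (adjusted p = 0.0118), while that of the brighter was not called (-2.31, adjusted p = 0.258).

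Among 10 syndecans and glypicans, the membrane-bound heparan sulfate proteoglycans, Sdc4 was the 1 member called. Sdc3, the antigen of the sort, was at 6.09, 5.56 and 6.11 in WT and 5.94, 7.09 and 7.33 in Sdc4-/- cells (difference 0.87, adjusted p = 0.262). Sdc1 was at 6.34, 3.11 and 3.05 in WT and 6.61, 6.29 and 7.12 in Sdc4-/- cells (2.51, adjusted p = 0.0975), so that WT replicate 1 lay with the Sdc4-/- arrays. Sdc2 stayed at 2.87 to 4.10 on all arrays (-0.19, adjusted p = 0.907).

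Of the 45101 probe sets 2286 (5.07%) were called, 1629 higher in Sdc4-/- cells (3.61%) and 657 lower (1.46%). Of 18194 genes, each read by its brightest probe set, 855 rose (4.7%) and 260 fell (1.43%), and these shares over all genes are a background for the counts of genes below. The 2 directions differed in kind. Of the lower calls 519 (79%) had both group means under 4, with a median difference of only -0.52, against 113 (6.94%) of the higher calls. When only genes averaging 4 or more were counted (6279), 639 rose (10.2%) and 35 fell (0.557%), and their median difference was 0.61, whereas the median over all genes was -0.06. For lists made mostly of such brighter genes, these are the nearer background. At a 2-fold difference with p at or under 0.01, taken here before adjustment, 2350 were higher and 235 lower. The split depends on the scale of the arrays and on the fit. A shift by the 75th percentile moved the median of all probe sets from -0.07 to -0.29 and gave 2270 higher and 11883 lower calls, and a shift by the median gave 1907 and 311. Without a change of scale the split was 1648 higher and 2124 lower without moderation, 1759 and 1695 without the WT 12 h arrays, 2772 and 2380 with array weights, 933 and 771 with only the groups compared and 920 and 91 with all 18 arrays. Leaving out WT replicate 2, Sdc4-/- replicate 2 or Sdc4-/- replicate 3 left 1433, 1398 and 1120 called probe sets.

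**Figure D2:**
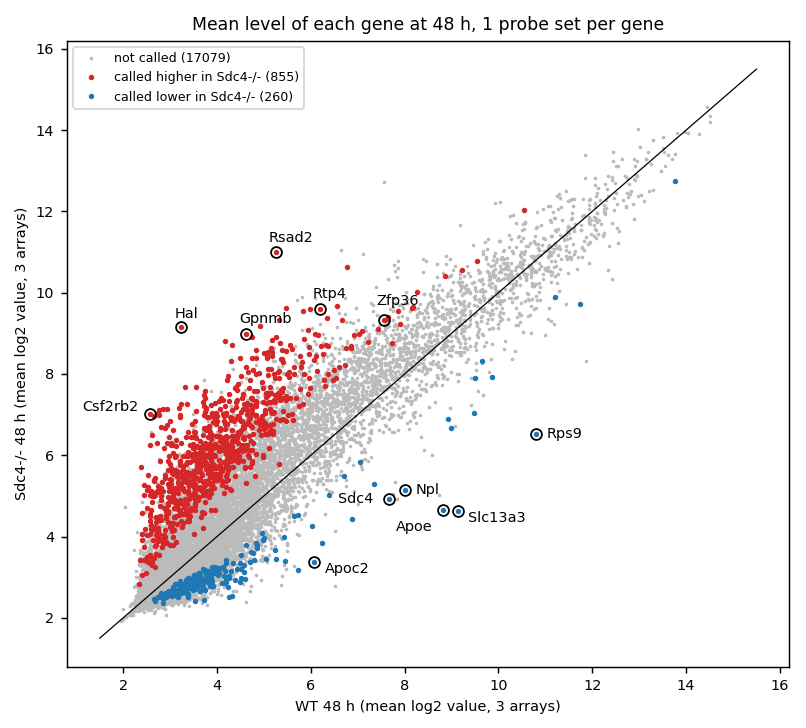
Mean log2 value of each of 18194 genes over 3 WT arrays (horizontal axis) and 3 Sdc4-/- arrays (vertical axis) at 48 h, with the line of equal values. The 855 genes called higher in Sdc4-/- cells form a band above the line, and the 260 called lower crowd at the dim end apart from a few brighter genes such as Apoe, Slc13a3 and Rps9.

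The 12 largest rises had WT means of 2.58 to 5.26 at 48 h. Of these genes Hal, Csf2rb2, Ccnyl1, Depdc7, Gdpd3 and Plac8 were read by 1 probe set only. Hal, which encodes the first enzyme of histidine breakdown, was at 2.94, 2.71 and 4.07 in WT and 9.08, 9.85 and 8.54 in Sdc4-/- cells, a rise of 5.92 (SE 0.90, adjusted p = 0.0031). Csf2rb2, the beta chain of the interleukin 3 receptor of mice, was at 2.70, 2.33 and 2.70 in WT and 6.92, 6.64 and 7.46 in Sdc4-/- cells, a rise of 4.43 (SE 0.30, adjusted p = 2.29e-05). Its groups were each tight and far apart. Gpnmb, which encodes a membrane glycoprotein of macrophage lysosomes and melanosomes, rose by 4.35 (SE 0.32, adjusted p = 3.15e-05), from 4.67, 4.63 and 4.56 to 9.33, 9.18 and 8.41, and its other probe set rose by 2.98. DBA/2J mice are known to carry a premature stop codon in Gpnmb, so that this gene is among those that can differ by strain.

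Raph1, whose product lamellipodin recruits actin-elongating proteins to the leading edge, rose by 4.40 (SE 0.58, adjusted p = 0.00139). Mrtfb, a cofactor of serum response factor that actin dynamics control, rose by 4.36 (SE 0.50, adjusted p = 0.000673) on 1 of its 3 probe sets, while another differed by -1.07 (adjusted p = 0.36). Ccnyl1, a cyclin of the Y type, rose by 4.35 (SE 0.41, adjusted p = 0.000191) and Depdc7 by 4.30 (SE 0.47, adjusted p = 0.000474). Gdpd3, of the glycerophosphodiester phosphodiesterases, rose by 4.30 (SE 0.50, adjusted p = 0.00068), and Tent5c, a poly(A) polymerase that lengthens mRNA tails, by 4.29 (SE 0.83, adjusted p = 0.0119). Ern1, which encodes the endoplasmic reticulum stress sensor IRE1, rose by 4.64 (SE 0.97, adjusted p = 0.0174) on 1 of 5 probe sets, the others lying between -0.66 and 0.13. Plac8 was at 2.84, 6.03 and 5.86 in WT and 9.87, 8.97 and 8.66 in Sdc4-/- cells (4.26, adjusted p = 0.0452). The last of the 12 largest rises, that of Rsad2, is described with the interferon-stimulated genes. The call of Ern1 ended without WT replicate 2 (adjusted p = 0.0646), Sdc4-/- replicate 2 (0.0501) or Sdc4-/- replicate 3 (0.0724), and that of Plac8 without any 1 of the 6 arrays (0.0613 to 0.125). With the covariate the calls of Csf2rb2, Gpnmb, Raph1, Mrtfb and Ccnyl1 held, and those of Hal (adjusted p = 0.164), Depdc7 (0.0533), Gdpd3 (0.0512), Tent5c (0.462), Ern1 (0.425) and Plac8 (0.743) did not.

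Among the genes that fell, a pair of lipoprotein genes stood near the top. Apoe, which encodes the apolipoprotein E that macrophages secrete, was at 8.67, 8.30 and 9.48 in WT and 4.90, 4.65 and 4.44 in Sdc4-/- cells, a fall of 4.15 on the log2 scale (SE 0.54, adjusted p = 0.00129) that was called in every alternative tried. Apoc2, the activator of lipoprotein lipase, was at 5.58, 6.04 and 6.55 in WT and 3.70, 3.11 and 3.34 in Sdc4-/- cells (-2.67, SE 0.44, adjusted p = 0.00508). Npl, which encodes the lyase that breaks down sialic acid, fell from 7.67, 7.62 and 8.76 to 5.23, 5.31 and 4.87 (-2.88, SE 0.55, adjusted p = 0.0113). Each of these 3 genes was read by 1 probe set only. Their groups do not overlap, which the rule for naming the largest differences required. Hagh, which encodes glyoxalase II, fell by 2.30 (SE 0.29, adjusted p = 0.00112), and a second of its 3 probe sets fell as well, by 1.79.

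Other large falls were also called on 1 probe set each, and Slc13a3, Rps9, Dnajc17 and Mea1 have further probe sets that were not called. Slc13a3, a dicarboxylate transporter, differed by -4.51 (SE 0.64, adjusted p = 0.00208) on an x_at probe set, while its 3 other probe sets were dim and differed by -0.44 to -0.04. Rps9, of the small ribosomal subunit, differed by -4.27 (SE 0.57, adjusted p = 0.00142) on an x_at probe set but by 0.07 and 0.08 on the other 2, and Dnajc17 fell on 1 of 3 (-2.44, SE 0.39, adjusted p = 0.00417). Probe sets whose names end in x_at can bind related transcripts, so that these values may not read the named gene alone. Hebp1, a heme-binding protein, fell by 2.44, Tsks by 2.38, Mea1 by 2.07 and Nucb2, a calcium-binding nucleobindin, by 2.03. The call of Hebp1 ended without WT replicate 2 (adjusted p = 0.065), Sdc4-/- replicate 1 (0.0643) or Sdc4-/- replicate 2 (0.0534), that of Tsks without WT replicate 3 (0.0756), Sdc4-/- replicate 2 (0.055) or Sdc4-/- replicate 3 (0.1), that of Mea1 without WT replicate 2 (0.0716), Sdc4-/- replicate 1 (0.0561) or Sdc4-/- replicate 3 (0.0653), and that of Nucb2 without any 1 of the 6 (0.078 to 0.14). With the covariate Apoe and Dnajc17 were still called, while the adjusted p was 0.0676 for Apoc2, 0.138 for Npl, 0.101 for Hagh, 0.11 for Slc13a3, 0.0595 for Rps9, 0.21 for Hebp1 and 0.279 for Mea1. It was 0.732 for Tsks, whose difference shrank from -2.38 to -0.96, and 0.894 for Nucb2, whose difference shrank from -2.03 to -0.62.

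Interferon-stimulated genes rose together in Sdc4-/- cells at 48 h. Interferons of type I act through a cell-surface receptor whose signal reaches the interferon-stimulated response element in the promoters of antiviral genes. Of 22 measured members of this list 13 rose and 0 fell, 59.1% against 4.7% of all genes, and the median difference was 2.48 against -0.06. On 19 of the 22 all Sdc4-/- arrays were above all WT arrays, which held for 14.4% of all genes. The element was searched as GAAANNGAAA on both strands in the 250 bases before the start of each gene that RefSeq gives on build GRCm38.p6. It was found in 7 of the 17 members with a promoter there (41.2%), in 3 of 10 that rose and in 4 of 7 that were not called, and in 936 of 27025 promoters in all (3.46%). Among all genes with a promoter there, 28 of 714 called higher (3.92%) and 8 of 207 called lower (3.86%) held it. The list was made of known interferon targets, so that its share does not bear on the difference at 48 h. Mx1, Mx2, Oas2, Rtp4 and Usp18 had no entry. The 3 stretches below are those of the members that rose, shown with 20 bases on either side and the match, or its reverse complement TTTCNNTTTC, in capitals. They lie at chr8:71537567-71537622 (minus strand) for Bst2, chr19:34583353-34583436 (plus strand) for Ifit3 and chr12:26456543-26456592 (minus strand) for Rsad2.
Bst2: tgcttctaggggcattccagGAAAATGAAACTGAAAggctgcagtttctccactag
Ifit3: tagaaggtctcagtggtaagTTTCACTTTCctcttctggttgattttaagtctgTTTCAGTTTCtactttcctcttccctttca
Rsad2: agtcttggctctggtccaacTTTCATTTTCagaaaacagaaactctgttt
Bst2 holds 2 overlapping matches, the first of which begins 130 bases before the start, the match of Rsad2 begins 120 before, and the first of the pair in Ifit3 begins 156 before. A match describes letters and shows no binding.

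Rsad2, whose product viperin blocks virus replication, was at 8.08, 2.30 and 5.4 in WT and 11.7, 10.7 and 10.6 in Sdc4-/- cells, a rise of 5.73 (SE 1.13, adjusted p = 0.0133). The WT arrays spanned almost 6 log2 units, with replicate 2 at background, and a second probe set of the gene rose by 4.03 (adjusted p = 0.0163). Rtp4, a chaperone of receptors that interferon induces, rose by 3.41 (SE 0.54, adjusted p = 0.00403), from 6.26, 5.10 and 7.20 to 10.1, 9.60 and 9.06. The other of its 2 probe sets differed by -0.42 and was not called. Bst2, whose product tetherin holds budding virus at the membrane, was at 4.85, 3.07 and 4.43 in WT and 7.65, 7.46 and 6.94 in Sdc4-/- cells, a rise of 3.23 (SE 0.51, adjusted p = 0.00384). Usp18, which removes the ubiquitin-like ISG15 and dampens the receptor, rose by 2.95 (SE 0.51, adjusted p = 0.0069), from 4.44, 2.57 and 3.59 to 6.35, 6.85 and 6.23. In all 4 genes WT replicate 2 was the lowest array.

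Sensors of viral RNA were among the members that rose. Ddx58, which encodes RIG-I, was at 2.72, 2.44 and 2.68 in WT and 4.81, 4.63 and 5.13 in Sdc4-/- cells, a rise of 2.24 (SE 0.36, adjusted p = 0.00436) on 1 of 3 probe sets. Ifih1, which encodes MDA5, rose by 3.02 (SE 0.69, adjusted p = 0.0272), Ifit2 by 2.66 (SE 0.47, adjusted p = 0.00758) and Ifit3 by 2.47 (SE 0.49, adjusted p = 0.0132), the last 2 encoding tetratricopeptide proteins that bind viral RNA. The transcription factors Irf7 and Irf9 rose by 2.09 (adjusted p = 0.00808) and 2.50 (adjusted p = 0.0195). Rises were called also for Oasl1 (3.18), Mx1 (2.46) and Oasl2 (1.63).

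Of the 9 members that were not called, 6 had every Sdc4-/- array above every WT array: Ifit1 (2.60, adjusted p = 0.0732), Cmpk2 (1.94, 0.0918), Oas2 (0.64, 0.188), Gbp2 (2.57, 0.189), Ifi35 (2.49, 0.209) and Oas1a (1.44, 0.241). Ifi35 had 2 other probe sets that were called, at 1.39 and 1.52. Xaf1 overlapped between the groups (2.44, adjusted p = 0.296), and Mx2 and Stat2 lay near background in both. Of the interferon side of the pathway, Ifnb1 was at 3.24 to 3.31 on 5 arrays and at 5.02 on Sdc4-/- replicate 3, the receptor chain Ifnar2 differed by 1.04 (adjusted p = 0.0528) and Irf1 by 0.17 (adjusted p = 0.922).

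The count of called members ranged from 8 to 11 with 1 array left out, was 4 with only the 6 arrays fitted and 4 after quantile normalization, and was 0 with the hybridization-control covariate, where the median was still 1.91. Calls ended for Ifih1 without Sdc4-/- replicate 1 (adjusted p = 0.0864), 2 (0.0501) or 3 (0.0806), for Oasl1 without WT replicate 1 (0.0549), 2 (0.0683) or 3 (0.0767) or Sdc4-/- replicate 3 (0.104), for Oasl2 without any array but Sdc4-/- replicate 2 (0.0561 to 0.106), and for Irf9 and Mx1 without any array but WT replicate 1 (0.0539 to 0.074 and 0.0609 to 0.0791). Macrophage markers, whose summed levels overlapped between the groups, are given further on.

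**Figure D3:**
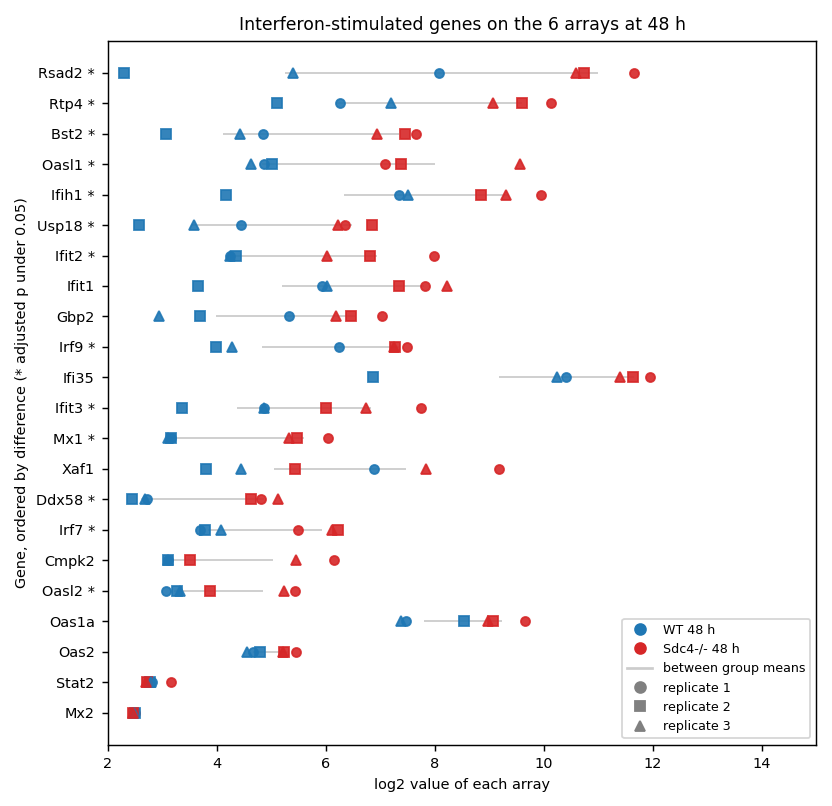
Log2 value of 22 interferon-stimulated genes on each of the 3 WT (blue) and 3 Sdc4-/- (red) arrays at 48 h, ordered by the difference of the group means, with an asterisk where the adjusted p was under 0.05. In 19 genes every red point lies to the right of every blue one, and WT replicate 2 (square) is often the lowest.

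Immediate early genes, which growth factors and stress switch on within minutes without new protein, were the list with the next highest share called. Of 20 members 5 rose and 0 fell (25%), the median difference was 1.38, and all 20 differences were positive. Among all genes averaging 4 or more, 10.2% rose and the median difference was 0.61. The list holds 19 genes this bright, and their median was 1.39. How often a difference was positive was not counted over all genes, so the general upward shift of bright genes may account for part of the shared sign. Zfp36 encodes tristetraprolin, which binds AU-rich elements and hastens the decay of cytokine mRNA. It was at 7.69, 7.31 and 7.64 in WT and 9.48, 9.46 and 9.05 in Sdc4-/- cells, a rise of 1.78 (SE 0.19, adjusted p = 0.000437). Fosb, an AP-1 subunit, was at 3.58, 2.55 and 2.85 in WT and 6.78, 7.22 and 6.53 in Sdc4-/- cells, a rise of 3.85 (SE 0.53, adjusted p = 0.00171). Neither gene overlapped between the groups, which held for 1110 of the 1115 called genes. Both stayed called with the covariate (adjusted p = 0.0393 and 0.027), while Ier2 (0.417), Atf3 (0.201) and Egr3 (0.613), given next, did not. With Fos, 3 members were called with the covariate, and 2 were called after quantile normalization.

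Ier2 rose by 3.14 (SE 0.63, adjusted p = 0.0142), Atf3, a stress-induced repressor, by 2.78 (SE 0.57, adjusted p = 0.0157) and Egr3, a zinc finger factor, by 2.11 (SE 0.51, adjusted p = 0.0346) on 1 of 2 probe sets. The founding members were bright in both groups. Fos was at 11.6, 11.7 and 11.3 in WT and 12.8, 12.6 and 11.5 in Sdc4-/- cells (0.76, adjusted p = 0.383, but 2.27 and 0.028 with the covariate), Egr1 differed by 1.37 (adjusted p = 0.22) and Ier3 by 0.99 (adjusted p = 0.0617). Jun was at 8.48, 3.80 and 6.07 in WT and 8.58, 9.0 and 7.92 in Sdc4-/- cells (2.38, adjusted p = 0.165), while its other probe set was called (2.06, adjusted p = 0.029). The call of Ier2 ended without WT replicate 2 (adjusted p = 0.0564), that of Atf3 without Sdc4-/- replicate 2 (0.0522) and that of Egr3 without any 1 array (0.0654 to 0.101), so that 3 to 5 members were called with 1 array left out, 3 of them without WT replicate 2 or Sdc4-/- replicate 2.

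Of 14 ERK feedback genes and targets 1 rose. Dusp4, a nuclear phosphatase that switches ERK off, was at 2.69, 2.74 and 4.10 in WT and 5.71, 5.06 and 4.97 in Sdc4-/- cells, a rise of 2.07 (SE 0.32, adjusted p = 0.00353), which held with the covariate (adjusted p = 0.049). Its relatives Dusp1 (1.16, adjusted p = 0.0702, or 0.0223 with the covariate) and Dusp5 (1.65, adjusted p = 0.0669) were higher on every Sdc4-/- array without a call. Upstream, none of 14 FGF and HGF ligands and receptors was called (7 had all Sdc4-/- arrays below all WT arrays, against 38.3% of all genes), and Fgfr1, Fgfr4 and Fgf2 lay near background in both groups. Met, the receptor of hepatocyte growth factor, was at 5.62, 3.75 and 3.62 in WT and 7.20, 6.38 and 7.44 in Sdc4-/- cells (2.68, SE 0.88, adjusted p = 0.108), and Fgfrl1 differed by 0.19. None of 16 heparan sulfate enzymes was called: Sulf2, an extracellular sulfatase, was higher on every Sdc4-/- array (2.57, adjusted p = 0.172), and Extl2 differed by -0.52.

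Cell cycle genes did not move as a block. Of 29 mitosis genes 2 rose and 1 fell, of 28 DNA replication genes 2 rose, of 17 G1 cyclins, CDKs and E2F factors 1 rose and of 14 CDK inhibitors and pocket proteins 1 rose, with medians of -0.05, 0.45, 0.24 and 0.71. Rb1, the retinoblastoma protein that holds back E2F, was at 5.10, 2.96 and 4.67 in WT and 7.49, 7.53 and 6.99 in Sdc4-/- cells, a rise of 3.09 (SE 0.55, adjusted p = 0.0078). Birc5, which encodes survivin of the chromosomal passenger complex, rose by 0.79 at a low level, from 2.88, 2.71 and 2.70 to 3.74, 3.66 and 3.25 (SE 0.11, adjusted p = 0.00149). Mki67, the proliferation antigen, was at 8.82, 9.4 and 8.65 in WT and 7.77, 7.08 and 6.65 in Sdc4-/- cells, which was lower on each array but not called (-1.79, SE 0.65, adjusted p = 0.147). Likewise the replication helicase subunit Mcm5 was lower on each Sdc4-/- array (-1.29, adjusted p = 0.169).

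Smc2, a condensin subunit, rose by 1.63 (adjusted p = 0.0232), Rrm1, of ribonucleotide reductase, by 2.06 (adjusted p = 0.0245), the DNA ligase gene Lig1 by 1.90 (adjusted p = 0.0273) and E2f8, a repressor of the E2F family, by 1.74 (adjusted p = 0.0157). Smc2 was called on 1 of 5 probe sets, Rrm1 on 1 of 3 and E2f8 on 1 of 2. Kif20a fell by 0.31 at background level (adjusted p = 0.0229). Cdk1 differed by -0.09, Ccnd1 by 0.26 (another of its 3 probe sets rose by 1.46) and Ccnd2 by 1.5 (adjusted p = 0.063). Cdkn1a, the inhibitor p21, differed by 0.89 (adjusted p = 0.629) on its bright probe set and rose by 2.72 (adjusted p = 0.00353) on the dimmer one. The calls ended without WT replicate 2 for Smc2 (0.0816), Rrm1 (0.0887), E2f8 (0.0566) and Kif20a (0.0828), without Sdc4-/- replicate 2 for Smc2 (0.0807), Rrm1 (0.0836), E2f8 (0.0621) and Kif20a (0.0702), without Sdc4-/- replicate 1 for Rrm1 (0.0804), E2f8 (0.0547) and Kif20a (0.0692), without Sdc4-/- replicate 3 for Smc2 (0.0509) and Kif20a (0.0504), and without any 1 array for Lig1 (0.0517 to 0.0905). Of the genes called here Birc5 alone held its call with the covariate (adjusted p = 0.0218; Rb1 0.164).

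Myogenic genes were low throughout. Of 24 satellite cell and quiescence genes Sdc4 alone was called. Myf5 was at 3.14, 3.29 and 3.57 in WT and 2.81, 2.8 and 2.61 in Sdc4-/- cells (-0.59, adjusted p = 0.0737). Cdh15, which encodes M-cadherin, was at 4.48, 5.6 and 3.56 in WT and 3.29, 3.27 and 3.2 in Sdc4-/- cells (-1.29, adjusted p = 0.0607). Both were higher on every WT array, without a call. Cd34 was at 2.48 to 2.49 in WT and at 2.45, 4.42 and 2.92 in Sdc4-/- cells (0.78, adjusted p = 0.328), and Vcam1, an adhesion molecule of these cells and of endothelium, differed by -0.11. Of 22 genes of commitment and differentiation 1 rose and 1 fell. Mef2c, a partner of the myogenic factors that macrophages and endothelium also express, was at 3.91, 3.08 and 3.35 in WT and 6.26, 6.87 and 6.25 in Sdc4-/- cells, a rise of 3.01 (SE 0.48, adjusted p = 0.00428; 0.0154 with the covariate) on 1 of 5 probe sets. The perinatal myosin Myh8 fell by 0.65 near background (adjusted p = 0.0454), a call that ended with the covariate (0.856) and without any array but WT replicate 3 (0.0711 to 0.16).

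Of 26 muscle fibre genes none was called, and the median was -0.17. The glycolytic aldolase gene Aldoa was at 10.6 to 10.9 in WT and 10.04 to 10.3 in Sdc4-/- cells (-0.55, SE 0.94, adjusted p = 0.81). Its SD at 48 h was only 0.16 in WT and 0.15 in Sdc4-/- arrays, while its SE also holds the spread of the other groups. The tropomyosin gene Tpm2 varied widely among the WT arrays (10.95, 8.81 and 6.03) and the Sdc4-/- arrays (8.93, 9.65 and 6.34), a spread between replicates larger than the difference of -0.29, and 1 of its 4 probe sets was called (-1.28, adjusted p = 0.0206).

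Markers of other cells that the sort could hold were compared in the same way. None of 24 monocyte and macrophage markers was called (median 0.11, or -0.11 after the shift by the 75th percentile), their summed level was 16.4 to 16.5 in WT and 16.3 to 16.8 in Sdc4-/- arrays, and Marco was near background in both. Lyz1 and Ctss, which encode a lysozyme and cathepsin S, were at 14.2 to 14.9 and 13.5 to 14.2 on all 6 arrays. Cd68 was higher on each Sdc4-/- array, at 10.2 to 10.3 against 8.79 to 9.43 (1.12, adjusted p = 0.405), as was Ptprc, which encodes CD45 (0.96, adjusted p = 0.712). None of 13 neutrophil markers was called, their summed level was 9.32 to 10.7 in WT and 8.21 to 9.07 in Sdc4-/- arrays, and S100a8 was at 8.68, 9.29 and 10.3 in WT and 7.05, 8.01 and 6.64 in Sdc4-/- cells (-2.19, adjusted p = 0.483), with S100a9 at -1.35. Elane, Ltf and Mpo, which define granules, were near background in both.

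Of 17 lymphocyte and NK markers none had a mean of 5 in either group, with Cd3e, Cd79a and Nkg7 near background, and none was called (Cd4 -0.62, Ighm -0.26). The endothelial sum was 9.03 to 9.61 in WT and 9.87 to 10.8 in Sdc4-/- arrays, while the defining genes Pecam1 and Cdh5 were near background, none of 17 members was called, and Cd93 and Egfl7 differed by 1.34 and -1.28. For smooth muscle and pericyte markers the sums overlapped (8.46 to 10.1 and 7.96 to 10.2), as did those of fibroblast and fibro-adipogenic markers (9.92 to 10.3 and 9.89 to 10.8), and none of either list was called. Rgs5 differed by -0.70, Acta2 by -0.18, Gsn by 0.03 and Col1a2 by 2.86 (adjusted p = 0.214). The Schwann sum was 9.71 to 10.9 in WT and 11.1 to 11.8 in Sdc4-/- arrays, and of 9 members Sox10 fell by 0.39 near background (adjusted p = 0.042), a call that ended with the covariate (0.663) and without WT replicate 2 (0.0731) or 3 (0.117) or Sdc4-/- replicate 2 (0.14) or 3 (0.156). None of 9 erythroid and platelet markers was called, with Pf4 at -0.64 and Ppbp at -1.14. Of 8 adipocyte markers Pparg, the nuclear receptor of fat cells that macrophages also use, rose by 1.87 (adjusted p = 0.0379; 0.0271 with the covariate), and its call ended without any array but WT replicate 1 (0.0831 to 0.117). The part of these cells in the differences above was not tested.

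Immune effector genes were described next. None of 24 CC and CXC chemokines was called, and Cxcl1 and Cxcl2, which draw neutrophils, were among the brightest genes on all 6 arrays (14.0 to 14.6 and 13.1 to 13.7). Cxcl10, an interferon-induced member, was higher on each Sdc4-/- array (1.38, adjusted p = 0.205), and Ccl2 differed by 0.60. Of 22 cytokines and receptors Il1rn, the antagonist of interleukin 1, rose from 5.45, 6.98 and 5.48 to 9.16, 8.71 and 8.11 (2.69, SE 0.65, adjusted p = 0.0352), and a second probe set of the gene was called as well. Of 10 class II genes of the major histocompatibility complex H2-Eb1 rose from 3.05, 3.06 and 3.07 to 5.18, 5.09 and 5.26 (2.11, SE 0.54, adjusted p = 0.0424). H2-Aa was higher on each Sdc4-/- array (2.90, adjusted p = 0.0874), with WT replicate 1 at 3.87 and the others at 8.36 and 7.54, and Cd74, the invariant chain, differed by 1.27 (adjusted p = 0.263).

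Of 11 class I genes Tap1, which carries peptides into the endoplasmic reticulum, rose by 1.72 (SE 0.36, adjusted p = 0.0175) on 1 of 4 probe sets, while the light chain B2m differed by 1.54 (adjusted p = 0.498). None of 12 complement genes was called (C1qb -0.94, C3ar1 0.47). None of 13 acute-phase and metallothionein genes was called either, although Saa3, an acute-phase protein, was at 8.85, 13.7 and 13.1 in WT and 8.17, 8.39 and 8.36 in Sdc4-/- cells (-3.57, SE 1.26, adjusted p = 0.136), so that WT replicate 1 lay near the Sdc4-/- arrays, and Mt1 differed by -0.18. The call of Il1rn ended without any array but WT replicate 2 (0.0657 to 0.105), that of H2-Eb1 without any 1 array (0.0786 to 0.128) and that of Tap1 without WT replicate 2 (0.0584), Sdc4-/- replicate 1 (0.0502) or Sdc4-/- replicate 3 (0.0658). With the covariate none of the 3 was called (0.433, 0.741 and 0.328).

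Adhesion and matrix genes gave few calls. Of 21 syndecan-4 partners and focal adhesion genes 2 rose, both of the complex that ties integrins to actin through integrin-linked kinase. Lims1, which encodes PINCH1, was at 5.73, 5.17 and 4.96 in WT and 7.47, 7.30 and 7.56 in Sdc4-/- cells, a rise of 2.16 (SE 0.35, adjusted p = 0.00437), and a second of its 5 probe sets was called. Its call ended with the covariate (adjusted p = 0.273), with all 18 arrays (0.156) and after quantile normalization, where the difference was 1.08 (0.404). Parvb, which encodes beta-parvin, was at 3.02, 3.57 and 3.02 in WT and 5.08, 4.57 and 4.26 in Sdc4-/- cells, a rise of 1.44 (SE 0.20, adjusted p = 0.00188; 0.0142 with the covariate, 0.0646 with only the groups compared) on 1 of 2 probe sets. The 2 rises are 9.52% of the list, against 4.7% of all genes and 10.2% of those with a mean of at least 4. The median of the list was 0.74, or 0.23 after quantile normalization. Its 14 members with a mean of at least 4 had a median of 1.04, against 0.61 for all such genes. Of its 21 differences 19 were positive, a share that was not counted over all genes. None of 22 integrins was called, with Itgb2 at 0.99 and Itga5, of the fibronectin receptor, at 1.87 (adjusted p = 0.069). The bright probe set of Itgav differed by 1.00 (adjusted p = 0.634), while a dim one rose by 2.02 (adjusted p = 0.013). None of 20 actin cytoskeleton genes was called (Cfl1 0.16, Tmsb10 0.27).

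Of 20 matrix proteases and inhibitors the collagenase gene Mmp13 rose from 5.80, 3.52 and 4.10 to 7.99, 8.99 and 8.21 (3.92, SE 0.93, adjusted p = 0.0323) and the membrane-type gene Mmp14 by 0.92 (adjusted p = 0.0369). Thbs1, which encodes thrombospondin 1 of the provisional matrix, rose from 4.09, 4.50 and 4.36 to 6.68, 5.50 and 7.72 (2.32, SE 0.47, adjusted p = 0.0155), the 1 member called of 20. None of 20 collagens was called: Col5a2 was higher on each Sdc4-/- array (3.71, SE 1.31, adjusted p = 0.135), and Col4a1 overlapped, with WT replicate 1 at 8.37 and the others at 3.85 and 3.39. None of 14 basement membrane genes was called (Lamb1 0.26, Nid1 0.45). Calls ended for Mmp13 without any array but WT replicate 1 (0.0613 to 0.116), for Mmp14 without WT replicate 1 (0.0706), 2 (0.0928) or 3 (0.0845) and for Thbs1 without Sdc4-/- replicate 3 (0.0504). All 3 calls ended with the covariate (0.209, 0.751 and 0.56).

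Growth factor pathways other than FGF held few calls. Igf2r, the receptor that clears insulin-like growth factor 2 and sorts lysosomal enzymes, was at 2.83, 2.19 and 3.87 in WT and 6.26, 6.60 and 6.47 in Sdc4-/- cells, a rise of 3.48 (SE 0.40, adjusted p = 0.000695), the 1 call among 12 genes of that system. Its adjusted p was 0.0723 with the covariate. Of 24 genes of the TGF-beta and BMP pathway Inhba, a subunit of activin A, rose by 2.52 (SE 0.56, adjusted p = 0.0248) and Bmp2 by 2.17 (SE 0.54, adjusted p = 0.0408), and Smad2 differed by 1.29 (adjusted p = 0.051). Of 18 Notch genes the target Hes5 fell by 0.59 near background (adjusted p = 0.0343), and none of 24 Wnt genes was called (Ctnnb1 0.30, Wnt11 -0.11). Calls ended for Inhba without WT replicate 2 (0.0622) or 3 (0.0669) or Sdc4-/- replicate 1 (0.0691) or 3 (0.0882), for Bmp2 without any array but Sdc4-/- replicate 3 (0.05 to 0.126) and for Hes5 without any array but WT replicate 1 (0.0729 to 0.115). None of the 3 was called with the covariate (0.663, 0.225 and 0.719).

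Genes of the lysosome and of protein folding rose in small numbers. Of 21 lysosome genes 3 rose (14.3%), with a median of 0.80. Of all genes with a mean of at least 4, 10.2% rose and the median was 0.61. The 20 lysosome members with such a mean had a median of 0.78. On 13 of the 21 every Sdc4-/- array was above every WT array. That held for 14.4% of all genes, a share not counted for the brighter genes alone. With the covariate the median was 0.10 and none was called. Atp6v1a, the catalytic subunit of the proton pump, was at 9.49, 9.20 and 9.0 in WT and 10.5, 10.7 and 10.6 in Sdc4-/- cells (1.34, SE 0.22, adjusted p = 0.00549), with its other probe set called too. Psap, the precursor of the saposins, rose by 1.48 (adjusted p = 0.0246) on 1 of 2 probe sets and the pump subunit Atp6v1b2 by 1.95 (adjusted p = 0.0291) on 1 of 4. The lipase gene Lipa differed by 2.32 (adjusted p = 0.0615) with 2 of its 3 probe sets called, Ctsd by 1.25 and Lamp1 by 0.81, all higher on each Sdc4-/- array. Of 20 genes of folding in the endoplasmic reticulum Pdia3 rose by 1.84 (SE 0.32, adjusted p = 0.00645), the stress sensor Atf6 by 2.23 (SE 0.43, adjusted p = 0.0115) on all 3 of its probe sets, and Sdf2l1 by 1.53 (SE 0.40, adjusted p = 0.046). These are 15% of that list, whose 17 members with a mean of at least 4 had a median of 0.40, against 10.2% and 0.61 for all such genes. Hspa5, the main chaperone there, was bright and differed by 0.67 (adjusted p = 0.619). Xbp1, whose mRNA IRE1 splices, differed by 0.17 on its brightest probe set, but 2 others rose, by 3.90 (adjusted p = 0.00137) and 1.06 (adjusted p = 0.0281). These calls ended for Psap without WT replicate 2 (0.0851) or 3 (0.0548) or Sdc4-/- replicate 1 (0.0718) or 2 (0.0808), for Atp6v1b2 and Sdf2l1 without any array but WT replicate 1 (0.0608 to 0.0992 and 0.0576 to 0.148) and for Atf6 without Sdc4-/- replicate 3 (0.0515). With the covariate the adjusted p was 0.141 for Atp6v1a, 0.409 for Psap, 0.209 for Atp6v1b2, 0.412 for Pdia3, 0.445 for Atf6 and 0.804 for Sdf2l1.

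Of 26 proteasome genes 2 rose, Psmd1 of the regulatory particle from 4.29, 4.29 and 5.12 to 6.43, 7.0 and 6.59 (2.11, SE 0.33, adjusted p = 0.00366) and Psmb2 by 2.02 (adjusted p = 0.0344). None of 21 heat shock chaperones was called (Hspa8 -0.32, Hspa1b 0.15). Of 18 core spliceosome genes Sf3a1 rose by 1.18 (adjusted p = 0.0141) and U2af1, which reads the 3' splice site, by 2.23 (adjusted p = 0.0272), and of 22 SR and hnRNP genes Ptbp1, a repressor of exons, rose by 2.25 (SE 0.44, adjusted p = 0.0125). Besides Zfp36, its relative Zfp36l2 rose among 23 genes of mRNA stability, from 5.70, 3.1 and 6.98 to 8.82, 8.89 and 8.99 (3.64, SE 0.76, adjusted p = 0.0178) on 1 of 3 probe sets. Of 27 genes of oxidative phosphorylation Ndufs1, of complex I, rose by 1.95 (SE 0.38, adjusted p = 0.0131). None of 24 genes of glycolysis and hypoxia was called (Pgk1 -0.60, Hif1a 0.02). Of 21 cytosolic ribosomal protein genes Rps18 fell by 1.02, from 13.8 on all WT arrays to 12.8, 12.8 and 12.6 (SE 0.24, adjusted p = 0.0292), and so did another of its 6 probe sets (-1.02, adjusted p = 0.00329). Calls ended for Psmb2 without any array but WT replicate 1 (0.0503 to 0.118), for Sf3a1 without WT replicate 2 (0.0553), for U2af1 without WT replicate 3 (0.088) or Sdc4-/- replicate 1 (0.0723), 2 (0.0669) or 3 (0.0845), for Zfp36l2 without Sdc4-/- replicate 2 (0.0529) or 3 (0.064) and for Rps18 without any 1 array (0.0585 to 0.109). With the covariate none of these genes was called, with adjusted p = 0.0507 for Psmd1, 0.746 for Psmb2, 0.526 for Sf3a1, 0.667 for U2af1, 0.194 for Ptbp1, 0.572 for Zfp36l2, 0.154 for Ndufs1 and 0.315 for Rps18.

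**Figure D4:**
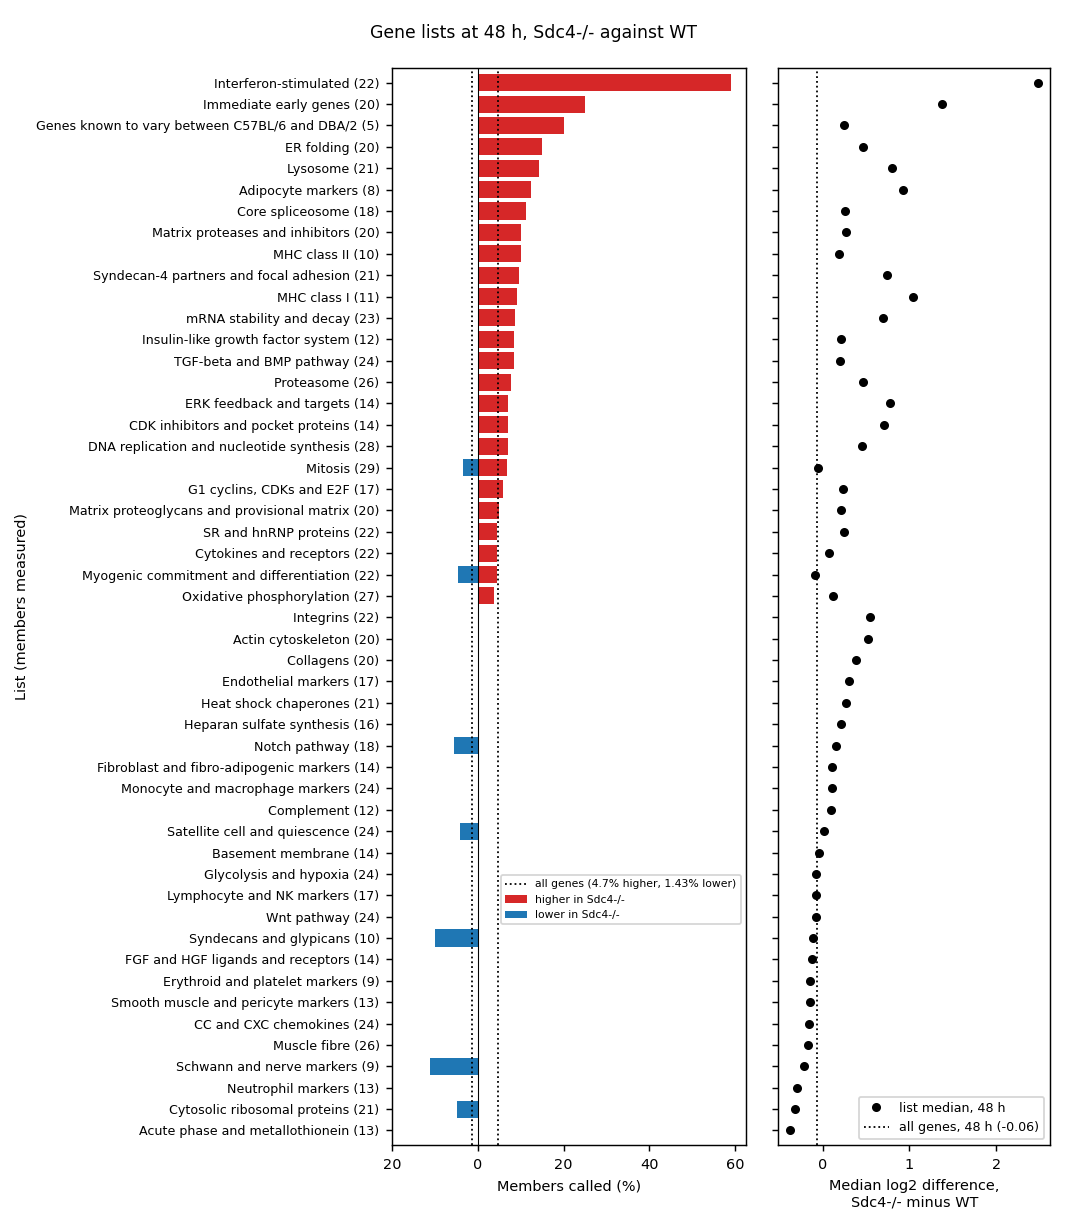
Left, share of the measured members of each of 50 gene lists called higher (red) or lower (blue) in Sdc4-/- cells at 48 h, with the shares of all genes as dotted lines (4.7% higher, 1.43% lower). Right, median log2 difference of each list, with the median of all genes (-0.06), where interferon-stimulated (2.48) and immediate early genes (1.38) lie farthest to the right.

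Next it was asked which differences were already present in uninjured cells, where 3 Sdc4-/- and 2 WT arrays were fitted. The change in the genotype difference between uninjured cells and 48 h was called for 1842 probe sets (4.08%), 1315 toward higher and 527 toward lower values in Sdc4-/- cells, and for 850 of the genes (4.67%). Of the 855 genes that rose at 48 h 315 showed such a change, and of the 260 that fell 91 did. Of 18194 genes 1115 were called at 48 h (6.13%) and 778 in uninjured cells. Called at both times were 47 genes in the same direction, 4.22% of the 1115 and 6.04% of the 778, and 37 in opposite directions. The comparisons share no arrays but share 1 estimate of the spread.

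Hal and Gdpd3 were higher in Sdc4-/- cells at both times, by 7.18 and 7.07 in uninjured cells (adjusted p = 0.00142 and 1.72e-05), and the change between times was not called (0.643 and 0.0592). So were Il7r, the interleukin 7 receptor (2.57 in uninjured cells and 3.72 at 48 h), the kinase gene Tec (2.34 and 2.87), the receptor phosphatase gene Ptpro (2.90 and 4.12) and Csf2ra, the alpha chain of the GM-CSF receptor (1.78 and 2.57). Oasl1 was higher by 3.35 in uninjured cells and by 3.18 at 48 h. Utf1 fell at both times (-2.14 and -1.21), the latter call ending without any array but Sdc4-/- replicate 1 (0.0774 to 0.148), and Rps9 likewise on its x_at probe set (-3.40 and -4.27). With the covariate the 48 h calls of Il7r (adjusted p = 0.0271) and Tec (0.0445) held, and those of Ptpro (0.0617), Csf2ra (0.23) and Utf1 (0.614) ended.

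Other genes turned round. Apoe was higher in uninjured Sdc4-/- cells by 2.75 (adjusted p = 0.024) and lower by 4.15 at 48 h, a change of -6.90 (SE 0.81, adjusted p = 0.000635). Slc13a3 changed from 2.76 to -4.51 and Npl from 1.84 to -2.88 (adjusted p of the change 0.00143 and 0.00781). In the other direction, Zfp36 was lower by 1.28 in uninjured Sdc4-/- cells (adjusted p = 0.00456) and higher by 1.78 at 48 h, and Egr3 changed from -2.93 to 2.11. Mir22hg, a host transcript of a microRNA, changed from -0.97 (adjusted p = 0.0154) to 2.36 (SE 0.18, adjusted p = 3.34e-05), with 4.37, 4.63 and 4.49 in WT and 6.86, 6.83 and 6.87 in Sdc4-/- cells at 48 h. Csf2rb2 (-0.61 in uninjured cells), Gpnmb (0.21), Mrtfb (-0.90) and Ccnyl1 (-0.83) differed at 48 h without a call in uninjured cells, and for each the change was called (adjusted p = 0.000103, 0.000635, 0.00244 and 0.000709). For Csf2rb2, Mrtfb and Ccnyl1 the WT mean moved most, from 6.74, 8.46 and 8.07 in uninjured cells to 2.58, 3.31 and 2.77. Their Sdc4-/- means were 6.13, 7.56 and 7.25 in uninjured cells and 7.01, 7.67 and 7.11 at 48 h. For Gpnmb the Sdc4-/- mean moved, from 4.05 to 8.98, against 3.84 and 4.62 in WT. At 12 h Csf2rb2 (5.49, adjusted p = 8.14e-07) and Ccnyl1 (4.04, 6.56e-05) were already higher in Sdc4-/- cells, while Gpnmb (0.07, 0.912) and Mrtfb (0.62, 0.442) were not called. Zfp36 (2.90), Egr3 (5.32) and Mir22hg (2.90) were also higher by 12 h (adjusted p = 2.73e-06, 4.60e-05 and 1.57e-06), and for Apoe, Slc13a3 and Npl the 12 h differences of -0.20, -1.41 and -0.13 were not called (0.851, 0.157 and 0.902). The WT 12 h arrays had 2832 to 3982 bright probe sets, against 5076 to 5565 on the Sdc4-/- 12 h arrays. Hybridization controls averaged 13.5 to 14.3 on the WT 12 h arrays and 9.71 to 12.3 on the Sdc4-/- 12 h arrays. On the uninjured arrays that were fitted, hybridization controls averaged 7.86 to 8.94 in WT and 9.72 to 10.3 in Sdc4-/- cells. This order is the reverse of that at 48 h, where WT arrays were higher. Bright probe sets on the uninjured arrays numbered 7213 to 7620 in WT and 7137 to 7864 in Sdc4-/- cells. The part of these measures in the 12 h differences and in the changes between the times was not tested.

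For interferon-stimulated genes the median difference was 0.19 in uninjured cells, and the change was called for 4 of 22 (Rtp4, Ddx58, Ifit2 and Ifit3), so that for the others a difference between the times was not shown. Pax7, Myf5 and Cd34, which in uninjured cells had WT and Sdc4-/- means of 4.87, 4.71 and 5.98 against 2.47, 2.82 and 2.82, lay at 3.57 or less in WT cells at 48 h, and the change was called for each (adjusted p = 8.05e-05, 0.0153 and 0.00422).

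**Figure D5:**
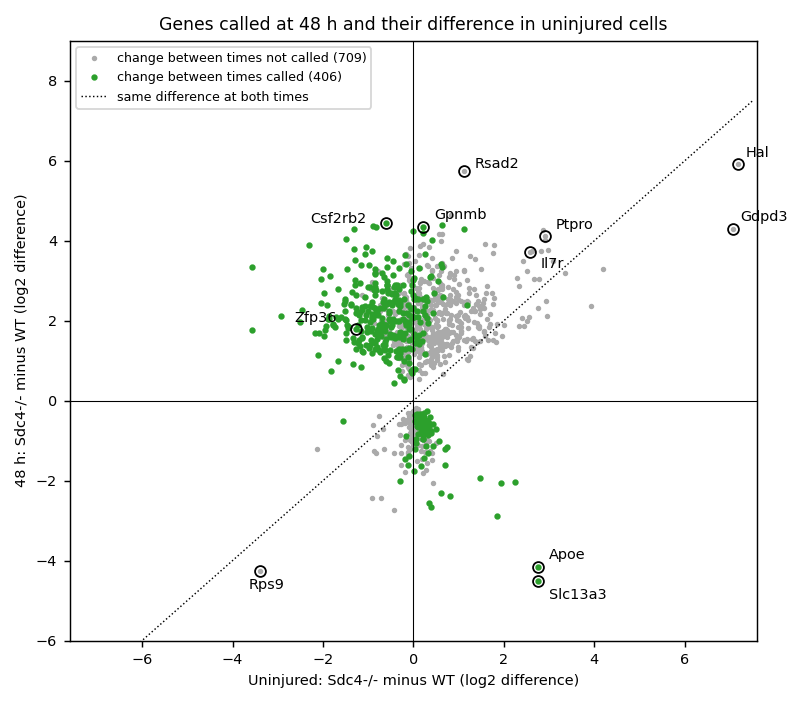
Log2 difference between Sdc4-/- and WT in uninjured cells (horizontal axis) and at 48 h (vertical axis) for the 1115 genes called at 48 h, in green where the change between the times was called (406) and grey where it was not (709). The dotted line marks equal differences, and Rps9, Il7r, Ptpro, Hal and Gdpd3 are among the grey genes with like signs at both times, while Apoe and Slc13a3 lie in the opposite quadrant and Zfp36 and Csf2rb2 on the upper left.

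Lastly, genes that can differ by strain or by linkage were examined. Of 5 genes known to vary between C57BL/6 and DBA/2 Gpnmb was called. Glo1, which is duplicated in some strains, was at 9.71, 10.7 and 7.86 in WT and 8.55, 7.66 and 7.48 in Sdc4-/- cells (-1.51, adjusted p = 0.179), and Klrd1 differed by 0.25. Nnt, part of which is deleted in C57BL/6J, differed by 1.22 (adjusted p = 0.428) on its bright probe set and by 1.87 (adjusted p = 0.00322), higher in Sdc4-/- cells, on another. H2-Ea, which C57BL/6 mice do not express, differed by -0.08 on its brightest probe set, and another was near background in both groups at 48 h (2.50 to 2.68 and 2.51 to 2.59), although in uninjured cells that probe set was lower by 4.69 in Sdc4-/- cells (adjusted p = 0.000315).

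A chromosome segment around a deleted gene can keep the strain of the stem cells it was made in. Of the 100 measured genes nearest to Sdc4 in gene order on chromosome 2, 3 rose and 2 fell (5%), against 6.13% of all genes called in either direction. Those that rose were Sys1 (2.36, adjusted p = 0.0146), Zmynd8 (2.26, adjusted p = 0.0431) and B4galt5 (2.13, adjusted p = 0.0273), and those that fell were Slc13a3 and Cd40, a receptor of antigen-presenting cells (-1.94, adjusted p = 0.0309), which was at 10.2, 10.1 and 9.33 in WT and 7.45, 8.55 and 7.77 in Sdc4-/- cells. Sys1 and Zmynd8 were called on 1 of 5 probe sets, B4galt5 on 1 of 2 and Cd40 on 1 of 3. Calls ended for Sys1 without WT replicate 2 (0.0543) or Sdc4-/- replicate 2 (0.0576) or 3 (0.0643), for Zmynd8 without WT replicate 2 (0.152) or 3 (0.123) or Sdc4-/- replicate 1 (0.121) or 2 (0.141), for B4galt5 without WT replicate 2 (0.0945) or 3 (0.0503) or Sdc4-/- replicate 2 (0.0676) or 3 (0.115) and for Cd40 without WT replicate 1 (0.0768) or 2 (0.0985) or Sdc4-/- replicate 1 (0.0989) or 3 (0.105). The 4 calls ended with the covariate as well (0.451, 0.411, 0.521 and 0.41).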

How the data were processed

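RNA of syndecan-3-sorted cells was hybridized to Affymetrix mouse arrays. The authors read them with the GeneChip Operating System (GCOS), normalized them with GCRMA, and the log2 values they deposited, of 45101 probe sets, were used unchanged. Program versions are not given in the sources used here, and 0 columns belonged to no sample. Symbols came from the array's annotation (34958 probe sets with 1 symbol, 932 with several, 9211 with none), and each of 18194 genes was read by its probe set with the highest mean.

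Arrays were grouped by genotype and time. All 6 groups were fitted together with limma 3.58.1 in R 4.3.3 (lmFit, eBayes, Benjamini-Hochberg over all probe sets) on 17 arrays, because the methods left out 1 uninjured WT array, taken here to be replicate 3. The text does not number that array. A linear model without moderation, with the same adjustment, was run as an alternative and is not the multifactor ANOVA that the methods name, which had a Bonferroni adjustment. Code was tested on simulated data.

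Named were Sdc4, Sdc3 and H2-Ea, the 12 largest differences in each direction among called genes with non-overlapping arrays and a higher group mean of at least 6, and from each of 50 lists the called members by adjusted p (at most 4), or the brightest 2 where none was called. All remaining genes were named after their values were seen: the other members of the interferon-stimulated list, markers and other probes of pathways described, genes called at both times, strain genes and neighbours of Sdc4. Members and lists were chosen with earlier results of these data known. Of 955 listed genes 879 were matched. A marker list's summed level is the log2 of the sum of its linear values. Tried in turn were a fit of all 18 arrays, one of the compared groups alone, trend and robust moderation, array weights, quantile normalization, a shift by the 75th percentile, a mean of at least 4, the hybridization-control covariate, the replicate block, for lists the mean of a gene's probe sets, and each 48 h array left out. Chosen after seeing the data were a shift by the median and leaving out the WT 12 h arrays. Neither detection calls nor a depth come with arrays, and their number limits the precision.

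Same-numbered arrays of the 2 groups did not deviate together (r = -0.0195, -0.0311 and -0.0113), so that no pairing by number was seen. Whether such arrays were handled together cannot be told from these values.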

Additional observations from a re-analysis of the deposited data

Results flagged for a closer look

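The genotype difference (Sdc4-/- minus WT) changed between uninjured cells and 48 h, by a test of the change itself, for the genes that follow. The values are changes on the log2 scale. Of the 24 genes with the largest differences at 48 h, the change was 5.6 for Tent5c, 5.25 for Mrtfb, 5.17 for Ccnyl1, 5.04 for Csf2rb2, 4.14 for Gpnmb, 3.77 for Raph1 and 3.2 for Depdc7. Toward lower values it was -7.27 for Slc13a3, -6.90 for Apoe, -4.72 for Npl, -4.27 for Nucb2, -3.19 for Tsks, -3.06 for Apoc2 and -2.90 for Hagh.

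Among immediate early and ERK feedback genes it was 5.04 for Egr3, 4.91 for Fosb, 3.37 for Atf3, 3.06 for Zfp36 and 2.11 for Dusp4, and for the transcript Mir22hg it was 3.33. Of the interferon-stimulated genes Rtp4 changed by 3.57, Ifit2 by 3.06, Ifit3 by 2.92 and Ddx58 by 2.77.

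Cell cycle genes changed by 2.75 (Rrm1), 2.40 (Smc2) and 0.74 (Birc5). For satellite cell and myogenic genes the change was 3.94 for Cd34, 3.04 for Mef2c, 2.35 for Pax7 and 1.31 for Myf5. Sdc1 changed by 5.22, Igf2r by 3.94, Lims1 by 3.07, Ndufs1 by 2.64 and Sf3a1 by 1.48, while Cd40 changed by -3.42 and Hes5 by -1.02. The WT uninjured group held 2 arrays in this fit, and with all 18 arrays 201 changes were called in place of 1842. Between the groups the order of the hybridization controls also reversed from uninjured cells to 48 h, and its part in these changes was not tested.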

How the results depend on the processing

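The 2286 called probe sets at 48 h became 1011 with all 18 arrays, 5152 with array weights, 791 after quantile normalization, 14153 after a shift by the 75th percentile, 227 with the hybridization-control covariate, 3772 without moderation and 3454 without the WT 12 h arrays (chosen after seeing the data). Leaving out 1 array at 48 h gave 1120 to 2529. At the 2-fold threshold 2585 probe sets became 1431 after quantile normalization, 1716 with a mean of at least 4 (fewer were tested), 1346 with the covariate and 1988 to 2703 with 1 array left out. The 1842 called changes between uninjured cells and 48 h became 201 with all 18 arrays, 2817 with array weights, 1089 after quantile normalization, 680 with a mean of at least 4, 243 with the covariate, 2876 without moderation and 1228 to 1919 with 1 array left out. With the replicate block the 3 counts were 1916, 2487 and 1366, and no pairing of the arrays by number was seen. The causes were not tested. No alternative turned the sign of a named gene that was called. Of 89 named genes that were called, 43 stayed called with each 48 h array left out, 65 with all 18 arrays, 43 with only the groups compared, 35 after quantile normalization, 17 with the covariate and 74 with the replicate block. Signal near background limits the order of values under about 3. Hes5, Inhba, Igf2r, Thbs1, Mmp14, Sox10, Pdia3, Sf3a1, Ptbp1, Ptpro, Csf2ra and Utf1 also have probe sets that were not called at 48 h.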
